A study of Mus musculus with 17 samples.

Results

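The lysosome and autophagy genes described here are 42 genes of 55357 in the deposited tables, taken by gene symbol and grouped by role: 2 transcription factors, 5 lysosomal membrane proteins, 5 cathepsins, 6 other hydrolases and hydrolase activators, 11 subunits or accessory proteins of the proton pump, 6 proteins of the autophagosome membrane or its cargo, and 7 proteins that start or build autophagosomes. Each gene was measured by RNA sequencing of β cells sorted from cultured mouse islets, in 17 samples of 4 groups. Control cells came from male tdTomato mice, which carry a rat insulin promoter Cre transgene (RIP-Cre) and a Cre-inducible Rosa26 tdTomato reporter. Pcbp2βKO cells came from male mice with the same transgene and reporter and, in addition, loxP-flanked Pcbp2 alleles, so that Cre removes Pcbp2, the gene of an RNA-binding protein. All mice were on a C57BL/6 background, and the age of the mice used for sequencing was not stated in the sources used here. After a recovery culture, islets were held for 72 hours (3 days) in glucose at 2.8 mM or at 16.7 mM, dissociated, and sorted for living tdTomato+ cells, giving 3 control samples at 2.8 mM, 4 control samples at 16.7 mM and 5 Pcbp2βKO samples at each glucose concentration. Every group therefore holds Cre and the reporter, and a cell counted as a β cell is one in which the insulin promoter once drove Cre. The labels do not say whether the samples of a group came from separate mice, so p-values measure the spread between these samples, which may be technical.

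Lysosomes are acidic compartments in which hydrolases break down proteins, lipids and glycans. The vacuolar proton pump (V-ATPase) acidifies them, membrane proteins such as LAMP1 line them, and autophagy brings cytoplasmic material to them inside a double membrane built by the ATG proteins. TFEB and TFE3 are transcription factors that bind a motif near the start of many lysosomal genes, and the kinase mTORC1 holds them in the cytoplasm when nutrients are plentiful. In β cells, lysosomes and autophagy are known for the turnover of insulin granules and damaged organelles.

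The letters that TFEB and TFE3 are known to bind were searched on both strands of a 300-base window around the start of each gene, from 250 bases before the first base of the Ensembl canonical transcript to 50 bases from it (GRCm39). CACGTG stood in the window of 10 of the 42 members (23.8%), against 7.97% of 22547 genes tested with such a window and 9.12% of the 15703 protein-coding genes among them. The longer form GTCACGTG, read on the other strand as CACGTGAC, contains CACGTG and stood in 7 of the 42 (16.7%), against 2.63% and 3.23%. Those 7 were Mcoln1, Lamp1, Ctsd, Ctsb, Gla, Atp6v0b and Atp6v1h, and Gabarap, Atg5 and Atp6v1a held the shorter form alone. The motif is known from many lysosomal genes, so a higher share among genes listed for that role is not a separate finding. The 30-base stretches below are shown for the 4 of these genes that were called with glucose in both genotypes, in the direction of transcription, with the longer motif in capitals.
Mcoln1, forward strand, chr8:3550436-3550465: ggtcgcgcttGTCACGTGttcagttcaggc
Mcoln1, forward strand, chr8:3550462-3550491: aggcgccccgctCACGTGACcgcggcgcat
Lamp1, forward strand, chr8:13209121-13209150: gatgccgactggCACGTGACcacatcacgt
Ctsd, reverse strand, chr7:141941792-141941821: tcttccttccccCACGTGACctgtatccag
Gla, reverse strand, chrX:133501931-133501960: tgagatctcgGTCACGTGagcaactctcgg

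Counted from 0 at the first transcribed base, the CACGTG core began at -4 and 22 in Mcoln1, at 12 in Lamp1, at -34 in Ctsd and at -44 in Gla, so that the second Mcoln1 match and the Lamp1 match lie in the first exon and the others reach or lie in the upstream sequence. Lamp1 held 4 copies of CACGTG in its window. Of these 4 genes, Mcoln1, Lamp1 and Ctsd were lower and Gla was higher in 16.7 mM glucose, as given below. A match describes these letters only; binding was not measured.

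Sequencing depth was 47385513 to 82419400 estimated counts per library. Pcbp2, the deleted gene, had 35.0 to 73.4 CPM (counts scaled to library size with TMM, the trimmed mean of M values) in the 7 control libraries and 5.81 to 19.2 CPM in the 10 Pcbp2βKO libraries, and Txnip, a known glucose-induced gene, had 19.0 to 41.7 CPM at 2.8 mM and 406 to 1426 CPM at 16.7 mM. Both match the labels in every library. Replicate 4 of the control cells and replicates 4 and 5 of the Pcbp2βKO cells at 16.7 mM stood apart: on the first principal component of log2 CPM they lay at 9.88, 21.4 and 33.2, and the other 6 libraries at 16.7 mM lay between 90.9 and 99.1. The 2.8 mM libraries lay between -105.5 and -42.4 on this component, so the libraries that stood apart lay towards them. Markers of macrophages, cells rich in lysosomes, moved with glucose: at 2.8 mM, Lyz2 had 6.88 to 133.8 CPM, and at 16.7 mM 0.394 to 10.5 CPM. Of the 9 macrophage markers, 2 fell and 0 rose with glucose in control cells, and 8 fell and 1 (C1qa) rose in Pcbp2βKO cells. Their summed level was 77.6 to 164.8 CPM in control cells and 47.5 to 194.9 CPM in Pcbp2βKO cells at 2.8 mM, and 37.7 to 104.5 and 20.8 to 111 CPM at 16.7 mM. C1qa was the larger part of the sum in every 16.7 mM library, at 36.3 to 95.9 CPM in control and 19.4 to 100.9 CPM in Pcbp2βKO cells. The overlap of the sums therefore does not show how far the other markers fell. Of the 9 markers, 3 averaged under 1 CPM. All 6 stellate markers, 5 of 6 acinar and 4 of 5 endothelial markers also averaged under 1 CPM.

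All 42 members passed the filter on low counts. In TPM, which corrects for transcript length and so allows levels to be compared between genes, Cd63, a lysosomal and granule tetraspanin, was the most abundant member, at 1724 ± 129 TPM (SD, n = 3) in control cells at 2.8 mM and 951 ± 138 TPM (SD, n = 4) at 16.7 mM. Psap and Sqstm1 followed, with means of the 4 group means of 478 and 471 TPM. Within each group these 2 overlapped between libraries, so their order is not fixed. By the mean of the 4 group means Tfeb was the least abundant member, with Ulk1 and Gla next to it, and it had 1.97 ± 0.0860 TPM (SD, n = 3) in control cells at 2.8 mM. The order of these 3 is not fixed: Tfeb overlapped Ulk1 (1.85 to 2.61 TPM) in control cells at 2.8 mM, and in Pcbp2βKO cells at 2.8 mM its group mean of 3.50 TPM lay above those of both. Tfe3, the related factor, had 8.70 to 9.96 TPM in those 3 libraries.

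**Figure D1:**
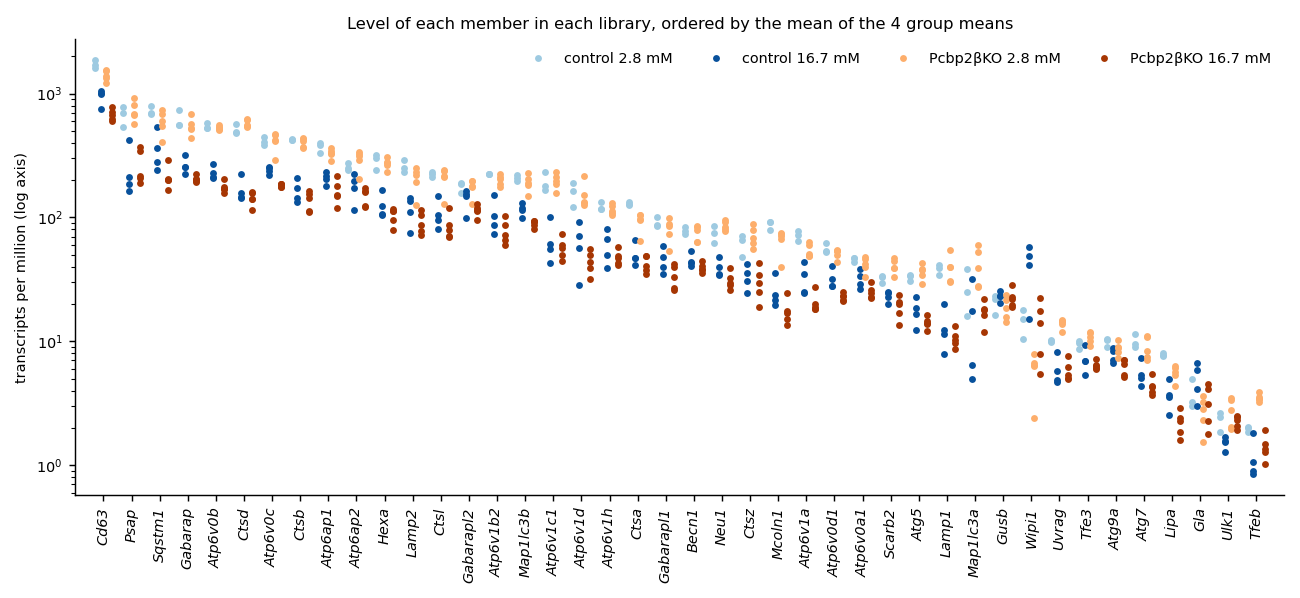
Level of each of the 42 genes in each of the 17 libraries, in TPM on a log axis, with genes ordered by the mean of the 4 group means and 1 point per library. Levels run from Cd63 (mean 1188 TPM) to Tfeb (mean 2.01 TPM), and for most genes the points at 16.7 mM lie below those at 2.8 mM on this scale.

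In control cells, 9 of the 42 genes changed between 2.8 mM and 16.7 mM glucose: 6 fell (Mcoln1, Lamp1, Ctsd, Atp6v1c1, Atp6v1d and Psap) and 3 rose (Wipi1, Gla and Gusb). Changes of more than 1.5-fold were called in edgeR's quasi-likelihood test at a threshold of 0.05 for the Benjamini-Hochberg adjusted p over 22784 genes. Of all genes tested, 13.8% were called, 7.15% higher and 6.69% lower, against 7.14% and 14.3% of the members. With the replicate number as a block, 2361 genes were higher and 2663 lower in place of 1629 and 1524, and the same 9 members were called. The labels do not say whether the numbers pair the libraries. The members' median log2 fold change was -0.13, with 29 of 42 estimates below 0, and that of all genes was 0.04, with 47.7% below 0. On the adjusted p alone, 10 members fell (23.8%; 8.15% of all genes) and 5 rose (11.9%; 7.78%). Libraries of the 2 glucose concentrations did not overlap, with the 16.7 mM libraries lower, for 14 members (33.3%; 12.3% of all genes), and with them higher for 6 members (14.3%; 11.8%).

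Mcoln1 encodes TRPML1, the cation channel through which lysosomes release calcium, and lies at chr8:3550452-3565253 on the forward strand. It had 179.9, 181.3 and 139.3 CPM in control cells at 2.8 mM and 78.5, 71.8, 71.3 and 86.2 CPM at 16.7 mM. All 16.7 mM libraries lay well below all 2.8 mM libraries. The difference was -1.12 ± 0.16 (SE) on the log2 scale, or 2.17-fold lower (edgeR adjusted p = 0.000618).

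Lamp1, the major glycoprotein of the lysosomal membrane, had 77.0, 96.4 and 82.5 CPM at 2.8 mM and 37.4, 46.8, 46.0 and 59.2 CPM at 16.7 mM in control cells. It was 1.80-fold lower at 16.7 mM, with no overlap (log2 -0.85 ± 0.17, SE; edgeR adjusted p = 0.00351). Lamp2, its paralog and a receptor of chaperone-mediated autophagy, had 483 to 598 CPM at 2.8 mM and 328 to 502 CPM at 16.7 mM, which overlap, and did not pass (edgeR adjusted p = 0.231). Cd63 and Scarb2, the transporter of glucocerebrosidase to lysosomes, did not pass either, at log2 -0.06 and 0.35.

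Ctsd, the main aspartic protease of lysosomes, had 1215, 1080 and 963 CPM at 2.8 mM and 659, 611, 514 and 633 CPM at 16.7 mM in control cells. The highest library at 16.7 mM lay well below the lowest at 2.8 mM, and the fitted difference was 1.80-fold (log2 -0.85 ± 0.14, SE; edgeR adjusted p = 0.00120). Ctsb, a cysteine protease, and Ctsa, the carboxypeptidase that protects NEU1, passed the adjusted p (0.0343 and 0.0297, edgeR) but not the fold change, at log2 -0.54 and -0.49. Ctsl and Ctsz, further cysteine proteases, did not pass, at log2 -0.28 and -0.08.

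Atp6v1c1 and Atp6v1d encode the C and D subunits of the V1 sector, the part of the proton pump that splits ATP. Atp6v1c1 had 357, 468 and 316 CPM at 2.8 mM and 192, 211, 206 and 270 CPM at 16.7 mM in control cells (log2 -0.79 ± 0.16, SE; edgeR adjusted p = 0.00312). Atp6v1d had 219, 320 and 229 CPM at 2.8 mM and 122, 156, 167 and 182 CPM at 16.7 mM (log2 -0.71 ± 0.19, SE; edgeR adjusted p = 0.0146). Neither gene's groups overlapped, and replicate 2 at 2.8 mM was the highest library for both. Without that library Atp6v1d was no longer called (log2 -0.52, edgeR adjusted p = 0.119). Atp6v1a and Atp6v1b2, the A and B subunits of the catalytic head, and Atp6v1h, a regulatory subunit, stood at log2 -0.36, -0.38 and -0.31 and did not pass. The membrane sector V0 did not move in 1 direction: Atp6v0b passed the adjusted p alone (log2 -0.45, edgeR adjusted p = 0.0260), and Atp6v0a1, Atp6v0c and Atp6v0d1 stood at 0.29, 0.03 and 0.00. The pump's accessory proteins Atp6ap1 and Atp6ap2 stood at log2 -0.04 and 0.24. Counts of Atp6v0c could be shared with a processed copy, Atp6v0c-ps2, listed at a mean of 10.7 CPM.

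Psap, the precursor of the saposins that help hydrolases degrade sphingolipids, had 2155, 1515 and 1776 CPM at 2.8 mM and 1080, 819, 947 and 1531 CPM at 16.7 mM in control cells. Replicate 4 at 16.7 mM overlapped the 2.8 mM libraries, and the other 3 lay below them. The log2 fold change was -0.73 ± 0.22 (SE; edgeR adjusted p = 0.0283), and the call was lost on leaving out replicate 1 or 3 at 2.8 mM or replicate 1, 2 or 3 at 16.7 mM (adjusted p up to 0.142, edgeR). Without replicate 4 at 16.7 mM it was -0.92.

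Wipi1, a phosphoinositide-binding protein of forming autophagosomes at chr11:109464156-109502793 on the reverse strand, showed the widest change among the members. It had 44.4, 27.4 and 36.03 CPM at 2.8 mM and 217.9, 222, 246 and 51.2 CPM at 16.7 mM in control cells. Replicates 1 to 3 at 16.7 mM lay close together and replicate 4 lay just above the 2.8 mM libraries. The log2 fold change was 2.36 ± 0.52 (SE), or 5.14-fold higher (edgeR adjusted p = 0.00609).

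Gusb, the lysosomal β-glucuronidase, had 52.8, 36.2 and 48.0 CPM at 2.8 mM and 112, 104.7, 89.9 and 66.5 CPM at 16.7 mM in control cells, with no overlap (log2 1.03 ± 0.20, SE; edgeR adjusted p = 0.00266). Gla, the α-galactosidase that is deficient in Fabry disease, had 9.63, 16.2 and 9.55 CPM at 2.8 mM and 27.8, 38.0, 30.5 and 12.5 CPM at 16.7 mM (log2 1.21 ± 0.38, SE; edgeR adjusted p = 0.0377). Replicate 4 again lay within the range of the 2.8 mM libraries. The Gla call was kept in 1 of the 7 fits that left out a control library, the one without replicate 4 at 16.7 mM, with adjusted p up to 0.145 by edgeR. Hexa, a β-hexosaminidase subunit, passed the adjusted p alone (log2 -0.42, edgeR adjusted p = 0.0411), and Neu1, a sialidase, and Lipa, the acid lipase, did not pass, at -0.20 and -0.34.

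Among the remaining autophagy genes of control cells, Atg9a, a lipid scramblase that feeds the growing membrane, and Gabarapl2, an ATG8-family protein, passed the adjusted p without the fold change, at log2 0.47 and 0.44 (edgeR adjusted p = 0.0171 and 0.0476). Sqstm1, the cargo receptor p62, stood at -0.34, and Map1lc3a, Map1lc3b, Gabarap and Gabarapl1, which are conjugated to the autophagosome membrane, stood between -0.42 and -0.05. Ulk1, the kinase that starts autophagy, stood at 0.47, and Becn1, Uvrag, Atg5 and Atg7, of the lipid kinase complex and the conjugation system, stood between -0.15 and 0.03. Tfeb had 3.67 to 4.29 CPM at 2.8 mM and 2.77 to 4.62 CPM at 16.7 mM, and Tfe3 29.4 to 32.2 and 32.8 to 47.6 CPM. Apart from Atg9a and Gabarapl2, these genes did not pass the adjusted p.

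**Figure D2:**
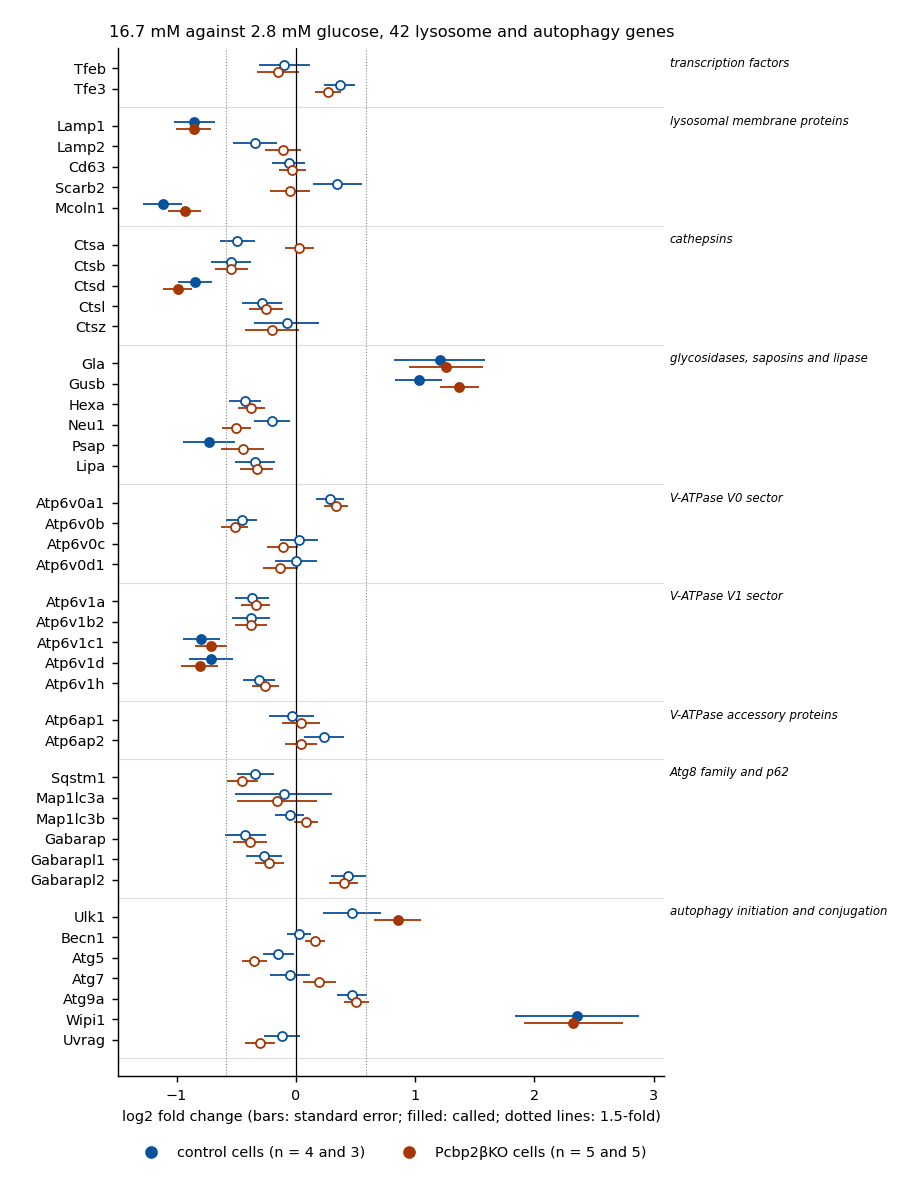
Log2 fold change of 16.7 mM against 2.8 mM glucose for the 42 genes, grouped by role, in control cells (blue, 4 and 3 libraries) and Pcbp2βKO cells (brown, 5 and 5 libraries), with bars for the standard error and filled points for called changes. In both, Mcoln1, Lamp1, Ctsd, Atp6v1c1 and Atp6v1d lie below -0.70 and Wipi1, Gusb and Gla lie above 1.

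In Pcbp2βKO cells, glucose changed 9 of the 42 genes: Ctsd, Mcoln1, Lamp1, Atp6v1d and Atp6v1c1 fell and Wipi1, Gusb, Gla and Ulk1 rose. This was 21.4% of the members, against 23.8% of all genes tested (13.4% higher, 10.4% lower). By direction, 9.52% of the members rose and 11.9% fell. The median log2 fold change of the members was -0.18, with 28 of 42 estimates below 0, and that of all genes 0.01, with 49.3% below 0. On the adjusted p alone, 13 members fell (31.0%; 14.2% of all genes) and 7 rose (16.7%; 15.8%). Libraries did not overlap for 9 members that were lower at 16.7 mM (21.4%; 10.8% of all genes) and for 6 that were higher (14.3%; 10.9%).

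Ctsd had 1103, 1167, 937, 1059 and 1248 CPM at 2.8 mM and 629, 604, 475, 544 and 524 CPM at 16.7 mM in Pcbp2βKO cells, with all 5 high-glucose libraries below all 5 low-glucose libraries (log2 -0.99 ± 0.12, SE; edgeR adjusted p = 1.59e-05). Mcoln1 had 130.2, 112, 109, 112 and 75.8 CPM at 2.8 mM and 53.5, 52.3, 53.1, 70.3 and 53.2 CPM at 16.7 mM (log2 -0.93 ± 0.14, SE; edgeR adjusted p = 8.27e-05). Its groups did not overlap, though replicate 5 at 2.8 mM and replicate 4 at 16.7 mM lay close to each other. Lamp1 had 84.3, 60.0, 72.1, 99.7 and 71.5 CPM at 2.8 mM and 44.9, 40.3, 37.4, 48.4 and 43.0 CPM at 16.7 mM (log2 -0.86 ± 0.14, SE; edgeR adjusted p = 0.000239). Both V1 subunits were also lower in each high-glucose library: Atp6v1d fell by 0.81 and Atp6v1c1 fell by 0.71 on the log2 scale (edgeR adjusted p = 0.000782 and 0.000538).

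Wipi1 had 17.7, 14.3, 11.9, 13.01 and 6.75 CPM at 2.8 mM and 90.8, 102, 69.4, 31.7 and 25.7 CPM at 16.7 mM in Pcbp2βKO cells (log2 2.33 ± 0.42, SE; edgeR adjusted p = 0.000441). Replicates 4 and 5 at 16.7 mM were the lowest of their group and still above every 2.8 mM library. Gusb had 39.7, 31.1, 40.5, 42.3 and 32.2 CPM at 2.8 mM and 109.9, 113, 99.5, 77.4 and 80.1 CPM at 16.7 mM, with no overlap (log2 1.37 ± 0.16, SE; edgeR adjusted p = 1.40e-05). Gla had 8.62, 10.2, 5.94, 8.29 and 5.16 CPM at 2.8 mM and 25.7, 25.1, 19.1, 11.7 and 9.91 CPM at 16.7 mM, where replicate 5 overlapped the low-glucose libraries (log2 1.26 ± 0.31, SE; edgeR adjusted p = 0.00478). Ulk1 had 7.56, 6.89, 10.2, 10.8 and 6.36 CPM at 2.8 mM and 13.4, 12.5, 13.4, 16.8 and 19.5 CPM at 16.7 mM (log2 0.85 ± 0.20, SE; edgeR adjusted p = 0.00319), and its direction turned on the TPM scale, at log2 -0.18.

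Psap in Pcbp2βKO cells did not pass with all libraries (log2 -0.45, edgeR adjusted p = 0.0713). It had 1076, 1038 and 1102 CPM in replicates 1 to 3 at 16.7 mM and 1645 and 1641 CPM in replicates 4 and 5, against 1611 to 2036 CPM at 2.8 mM. Without the 3 libraries that stood apart Psap fell by 0.76 (edgeR adjusted p = 0.000575). In Pcbp2βKO cells 11 members were then called in place of 9, Psap and Sqstm1 being added. These libraries lay towards the 2.8 mM libraries on the first component, so leaving them out favours a wider glucose difference. In control cells the same 9 members were called without them, while more of all genes were called (counts in the closing section). The 11 members are not set against the share of all genes in that fit.

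**Figure D3:**
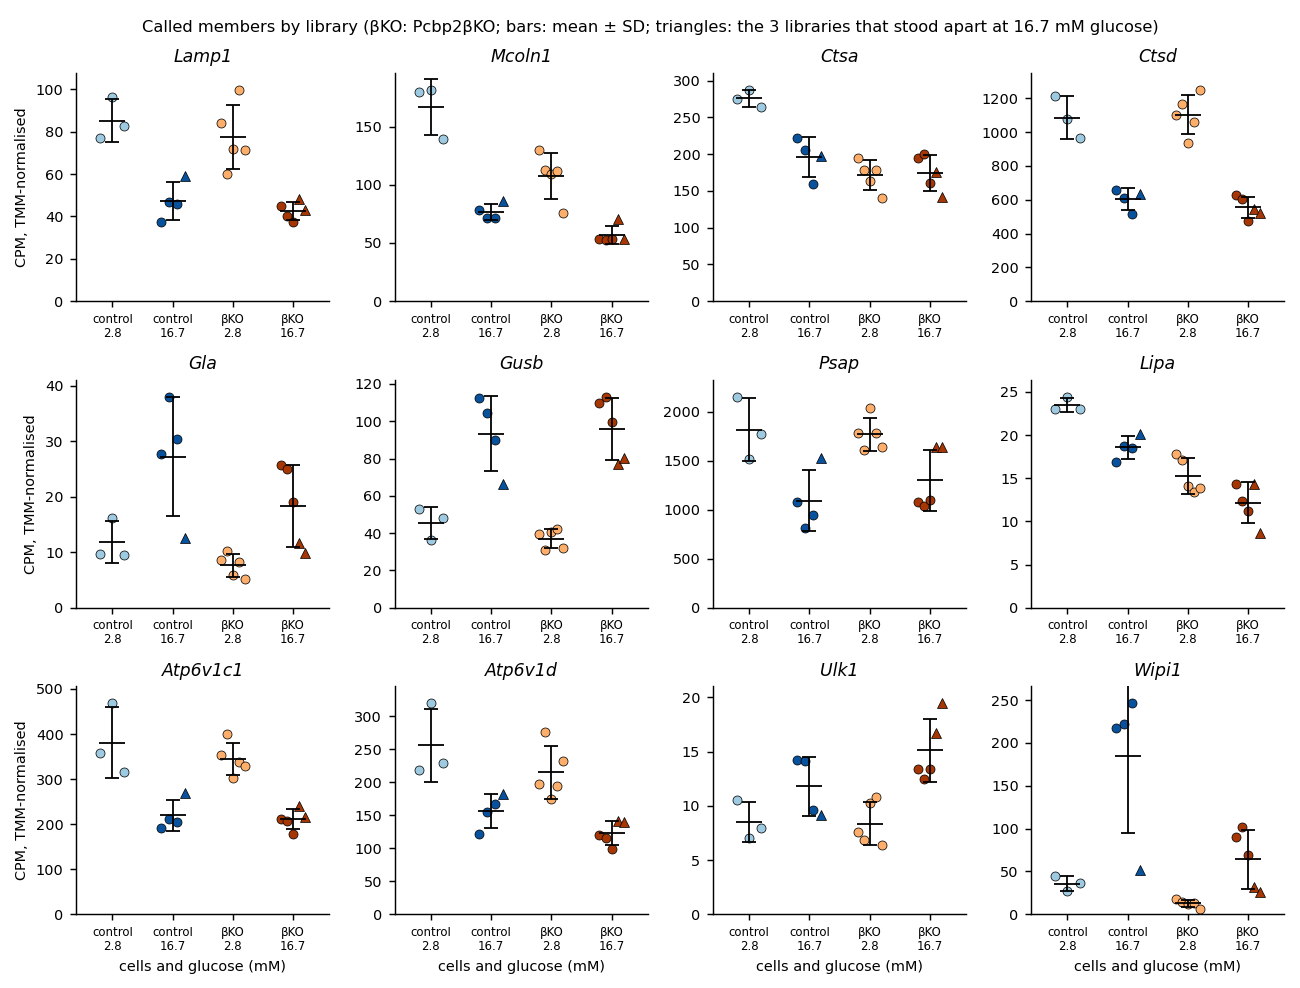
CPM of the 12 genes called in any comparison, by library, for control and Pcbp2βKO (βKO) cells at 2.8 mM and 16.7 mM glucose, with bars for mean ± SD and triangles for the 3 libraries that stood apart. The triangles of Wipi1, Gla, Gusb, Psap, Atp6v1c1 and Atp6v1d lie nearer to the 2.8 mM libraries than the other 16.7 mM libraries do. Those of Lamp1 and Mcoln1 do so in control cells, and those of Ctsd do not.

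The 2 glucose comparisons share no libraries. A difference in the glucose response between the genotypes was called for none of the 42 genes: the interaction called 0 members by edgeR and 0 by DESeq2, against 0.00439% of all genes by edgeR, and 1 member, Ctsa, had an unadjusted p under 0.05 by either tool. Ctsa had 275.7, 287 and 264.8 CPM in control cells at 2.8 mM and 159 to 222 CPM at 16.7 mM, and in Pcbp2βKO cells 140.8 to 194.7 CPM at 2.8 mM and 141.8 to 200.4 CPM at 16.7 mM. The difference in response was 0.52 ± 0.19 (SE) on the log2 scale, with an adjusted p of 1.0 by edgeR. Of the 42 interaction estimates 18 lay below 0, and of those of all genes 50.9%.

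Markers of several cell types moved with glucose beside these genes, and their part in these results was not tested. Macrophage markers fell as given above. In Pcbp2βKO cells, 2 of 2 PP-cell, 2 of 4 δ-cell and 2 of 5 α-cell markers also fell and 1 α-cell marker rose. In control cells, 1 of 4 δ-cell markers fell, 1 of 5 α-cell and 1 of 4 ductal markers rose, and 0 of 2 PP-cell markers were called. The summed PP-cell markers were 1111 to 1208 CPM at 2.8 mM and 368.5 to 999 CPM at 16.7 mM in control cells, without overlap, and 1431 to 7425 and 470.3 to 1456 CPM in Pcbp2βKO cells, with overlap. Of the 10 β-cell markers, 6 rose in control and 8 in Pcbp2βKO cells, and 0 fell in either. Within control cells at 2.8 mM, replicate 2 had the lowest Lyz2 (6.88 CPM, against 53.8 and 24.8 in replicates 1 and 3) and the highest Lamp1, Atp6v1c1 and Atp6v1d. Mcoln1 was nearly equal in replicates 2 and 1, at 181.3 and 179.9 CPM. Ctsd and Psap were highest in replicate 1. Replicate 2 of the Pcbp2βKO cells at 2.8 mM also had the lowest Lyz2 of its group (20.8 CPM, against 85.2 to 133.8 in the others). There it had the lowest Lamp1 and the highest Atp6v1c1 and Atp6v1d. What these orders mean was not tested. In sorted bulk samples, fewer cells of a type and less RNA per cell cannot be told apart.

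How many members fell depended on the scaling. With total counts in place of TMM, 20 members fell and 2 rose in control cells and 25 fell and 3 rose in Pcbp2βKO cells. With limma on log2(TPM + 1), 30 fell and 1 rose, and 37 fell and 1 rose, the riser being Wipi1 in both. Gusb and Gla were thus not called higher with TPM in either genotype. For Gusb the adjusted p was 0.476 in control and 0.152 in Pcbp2βKO cells by limma. Gla in control cells was not called with total counts either. These scalings also moved the median of all genes, to -0.35 and -0.24 in control cells and to -0.47 and -0.33 in Pcbp2βKO cells, and the members' medians lay below them at -0.51 and -0.90, and at -0.66 and -1.15. The split of all called genes moved too, from 1629 higher and 1524 lower to 782 higher and 4055 lower with total counts and 250 and 6725 with TPM in control cells, and from 3056 and 2375 to 1482 and 6369 and to 345 and 8486 in Pcbp2βKO cells. Ins1, Ins2 and Iapp, the main β-cell hormone genes, took 12.9% to 13.7% of counts in control cells at 2.8 mM and 27.1% to 39.2% at 16.7 mM, and with these genes left out of the TMM factors the same 9 members were called in each genotype.

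**Figure D4:**
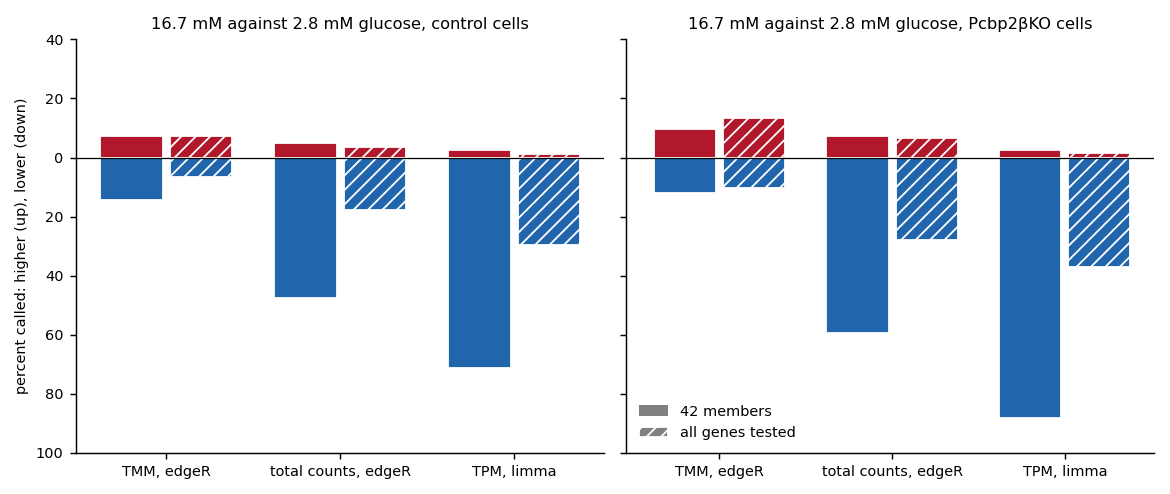
Percent of the 42 members (plain bars) and of all genes tested (hatched bars) called higher (upward, red) or lower (downward, blue) at 16.7 mM glucose, under 3 scalings, in control (left) and Pcbp2βKO (right) cells. The share of members called lower grows from 14.3% (6 members) with TMM to 30 members with TPM in control cells, and that of all genes grows as well.

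Pcbp2βKO cells differed from control cells in few members, and every called one was lower. At 2.8 mM glucose, Ctsa, Mcoln1 and Lipa fell and 0 rose (7.14% of members, against 2.04% of all genes, 1.78% lower and 0.255% higher). At 16.7 mM, Lipa alone fell and 0 rose (2.38%, against 1.71% of all genes, 1.42% lower and 0.29% higher). Unadjusted p was under 0.05 by edgeR for 13 members lower and 2 higher at 2.8 mM, and for 14 lower and 1 higher at 16.7 mM. DESeq2 gave 13 lower and 2 higher, and 15 lower and 1 higher, and also called none of the higher ones. All genes were not counted at this threshold, so these counts cannot be read as a trait of the members. The genes called over the whole set were also mostly lower, as given above. The members' median log2 fold change was -0.25 at 2.8 mM and -0.22 at 16.7 mM, with 32 and 36 of 42 estimates below 0, and those of all genes were 0.03 and 0.01, with 46.6% and 48.6% below 0. On the adjusted p alone, 4 members fell and 0 rose at 2.8 mM (9.52%; 1.86% of all genes lower and 0.259% higher), and 3 fell and 0 rose at 16.7 mM (7.14%; 1.5% and 0.307%). Libraries did not overlap for 12 members lower and 3 higher in Pcbp2βKO cells at 2.8 mM (6.88% and 4.06% of all genes), and for 5 lower and 0 higher at 16.7 mM (2.64% and 1.85%). These comparisons share no libraries with each other, but each shares its libraries with the glucose comparisons. The calls depended on the fit: with the replicate number as a block, Lipa and Mcoln1 were not called and Wipi1 was called at both concentrations. Ctsa at 2.8 mM stayed called with the block. The labels do not say whether the numbers pair the libraries (see the closing section).

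Ctsa was 1.61-fold lower in Pcbp2βKO cells at 2.8 mM, where the libraries given above did not overlap (log2 -0.69 ± 0.14, SE; edgeR adjusted p = 0.0103), and the call held in all 8 fits that left out 1 library. At 16.7 mM the groups overlapped (log2 -0.17, edgeR adjusted p = 0.702). Mcoln1 was 1.55-fold lower at 2.8 mM, with no overlap (log2 -0.63 ± 0.16, SE; edgeR adjusted p = 0.0385), and stood at -0.45 at 16.7 mM (adjusted p = 0.162, edgeR), again with no overlap. Its call at 2.8 mM was lost on leaving out replicate 1 or 2 of the control or any of replicates 2 to 5 of the Pcbp2βKO cells (adjusted p up to 0.178, edgeR).

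Lipa, which hydrolyses cholesteryl esters and triglycerides in lysosomes, had 23.0, 24.5 and 23.0 CPM in control cells and 17.8, 17.1, 14.1, 13.4 and 13.9 CPM in Pcbp2βKO cells at 2.8 mM (log2 -0.62 ± 0.16, SE; edgeR adjusted p = 0.0482). At 16.7 mM it had 16.9, 18.8, 18.5 and 20.1 CPM in control cells and 14.3, 12.3, 11.2, 14.3 and 8.66 CPM in Pcbp2βKO cells (log2 -0.61 ± 0.15, SE; edgeR adjusted p = 0.0401). The genotypes did not overlap at either concentration. Both calls sat near the threshold: at 2.8 mM it was lost on leaving out any control library or Pcbp2βKO replicate 3, 4 or 5, and at 16.7 mM on leaving out control replicate 2, 3 or 4 or Pcbp2βKO replicate 2, 3 or 5 (adjusted p up to 0.168 and 0.113, edgeR).

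Atp6v1a passed the adjusted p without the fold change at both concentrations (log2 -0.54 and -0.51, edgeR adjusted p = 0.0458 and 0.0439), and Sqstm1 did so at 16.7 mM (log2 -0.56, edgeR adjusted p = 0.0458). Wipi1 stood lower in Pcbp2βKO cells by more than any other member and did not pass, at log2 -1.49 ± 0.45 (SE) at 2.8 mM and -1.53 ± 0.42 (SE) at 16.7 mM (edgeR adjusted p = 0.108 and 0.0820). Its libraries did not overlap at 2.8 mM, where control cells had 27.4 to 44.4 CPM and Pcbp2βKO cells 6.75 to 17.7 CPM, and overlapped at 16.7 mM through control replicate 4. Wipi1 was called without that replicate (log2 -1.85, edgeR adjusted p = 0.00724). It was called at both concentrations without the 3 libraries that stood apart (-1.48 and -1.39, edgeR adjusted p = 0.00146 and 0.0100) and by DESeq2 (adjusted p = 0.0294 and 0.0116). Those libraries were set apart along a component that follows glucose, with which Wipi1 rose, so that fit depends on the choice. Without those 3 libraries the called members at 2.8 mM were 4 in place of 3, and at 16.7 mM Wipi1 was called and Lipa was not. The paper, whose model had a batch term, lists Wipi1, Sqstm1 and Lipa among genes it found reduced by Pcbp2 deficiency at high glucose.

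**Figure D5:**
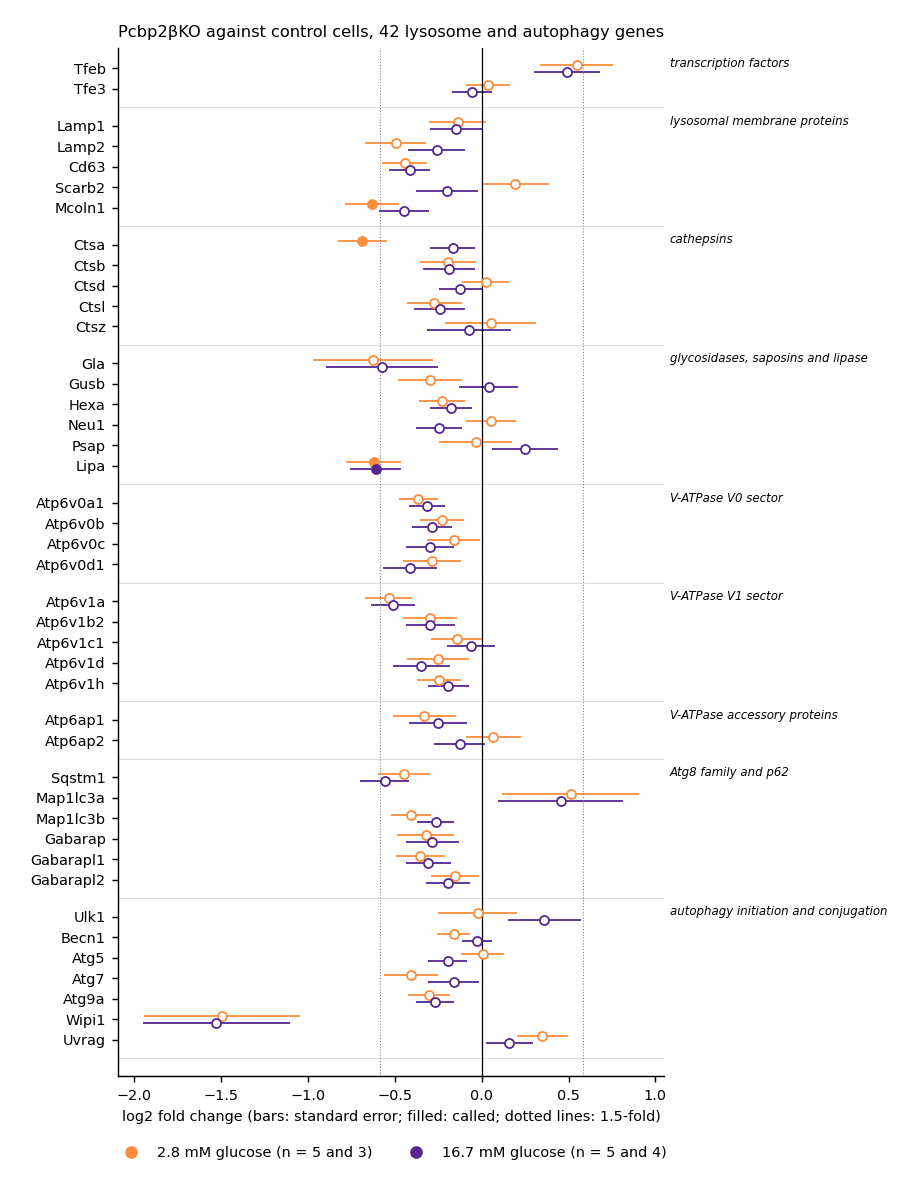
Log2 fold change of Pcbp2βKO against control cells for the 42 genes, grouped by role, at 2.8 mM (orange, 5 and 3 libraries) and 16.7 mM glucose (purple, 5 and 4 libraries), with bars for the standard error and filled points for called changes. Most points lie between -0.6 and 0, Wipi1 lies near -1.5 with wide bars, and the filled points are Ctsa, Mcoln1 and Lipa at 2.8 mM and Lipa at 16.7 mM.

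Tfeb stood higher in Pcbp2βKO cells and did not pass: it had 3.67 to 4.29 CPM in control and 5.21 to 6.45 CPM in Pcbp2βKO cells at 2.8 mM, without overlap (log2 0.55 ± 0.21, SE; edgeR adjusted p = 0.239). At 16.7 mM the ranges of 2.77 to 4.62 and 4.20 to 6.30 CPM overlapped (log2 0.49, edgeR adjusted p = 0.276). Tfe3 stood at 0.04 and -0.06. No α-, δ- or PP-cell marker was called between the genotypes at either concentration. At 2.8 mM, 2 of 10 β-cell markers and 1 of 9 macrophage markers (C1qa) fell, and 0 of either were called at 16.7 mM. The median log2 fold change of the 9 macrophage markers at 2.8 mM was 0.79. Lyz2 had 6.88 to 53.8 CPM in control and 20.8 to 133.8 CPM in Pcbp2βKO cells there. The macrophage sums at 2.8 mM, 77.6 to 164.8 and 47.5 to 194.9 CPM, overlapped. Of these sums, C1qa was 66.5 to 92.5 CPM in control and 12.7 to 21.8 CPM in Pcbp2βKO cells. At 2.8 mM the summed PP-cell markers (1111 to 1208 CPM in control and 1431 to 7425 CPM in Pcbp2βKO cells) and δ-cell markers (250.8 to 391.2 and 480.9 to 1320 CPM) did not overlap, while the α-cell sums of 691 to 2623 and 1570 to 9438 CPM did. At 16.7 mM all these sums overlapped. Their part in the results was not tested.

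With total counts in place of TMM, or limma on log2(TPM + 1), 0 members were called between the genotypes at either concentration. The members' median at 2.8 mM was then -0.13 and -0.08, and that of all genes 0.15 and 0.05. The split of all called genes at 2.8 mM moved from 58 higher and 406 lower to 87 and 196 with TPM.

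The share of each transcript in a gene's TPM was examined for Lamp2, whose transcripts encode proteins with different membrane tails. Lamp2-201 made up a mean of 83.3% in control cells and 84.2% in Pcbp2βKO cells at 2.8 mM, and 80.6% and 81.5% at 16.7 mM. Lamp2-202 made up 15.1%, 14.6%, 17.7% and 16.99% in the same order. In 8 exact two-sided permutation tests, of both transcripts in the 4 comparisons, no difference was detected (Benjamini-Hochberg adjusted p = 0.841 in each). The smallest exact p possible with 4 against 3 libraries is 0.0571.

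Psap, by contrast, showed a shift that was noticed after its values were seen and was not tested. Psap-205 made up 31.4% ± 5.71 (SD, n = 3) of Psap TPM in control cells at 2.8 mM and 14.5% ± 3.43 (SD, n = 4) at 16.7 mM, with ranges of 27.4% to 38.0% and 11.99% to 19.4%. In Pcbp2βKO cells it made up 22.4% ± 8.57 (SD, n = 5) and 10.8% ± 3.01 (SD, n = 5), with ranges of 7.62% to 29.7% and 6.26% to 14.7%, which overlap. Psap-202 took up most of the remainder. Psap was not the only member with such a shift. Ctsa-206, annotated as retaining an intron, made up 12.02% to 12.65% of Ctsa TPM in control cells at 2.8 mM and 4.03% to 9.36% at 16.7 mM. It made up 14.1% to 17.4% and 5.0% to 9.9% in Pcbp2βKO cells, and was not tested either. A transcript share rests on kallisto's division of reads among overlapping transcripts.

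A further 142 genes of the same pathways were listed by role, of which 140 were in the tables and 136 were tested. In control cells, 24 of the 136 fell with glucose (17.6%; 6.69% of all genes) and 5 rose (3.68%; 7.15%). In Pcbp2βKO cells 26 fell (19.1%; 10.4%) and 9 rose (6.62%; 13.4%). Among the mTORC1 regulators at the lysosome, 4 of 21 fell and 0 rose in control cells, and 5 fell and 1 rose in Pcbp2βKO cells. Among lysosomal membrane and transport genes, 8 of 24 fell and 0 rose in either. The other hydrolases went both ways, with 7 of 36 lower and 2 higher in control cells and 7 lower and 5 higher in Pcbp2βKO cells. Of the other autophagy genes, 4 of 39 fell and 2 rose in each. Of the other proton pump subunits, 1 of 11 fell and 1 rose in control cells and 2 fell and 1 rose in Pcbp2βKO cells, and 0 of 5 other transcription factors were called in either. By the smallest adjusted p in control cells the called genes were led by Ctns, the cystine exporter (log2 -0.89), Tpp1, a tripeptidyl peptidase (-0.97), Lamtor1, an anchor of mTORC1 (-0.88), and Atg14, a subunit of the autophagy lipid kinase (-1.36), with edgeR adjusted p of 0.000896, 0.00207, 0.00223 and 0.00282. In Pcbp2βKO cells Ctns (-1.02), Fnip1, a partner of folliculin (-1.18), and Lamtor1 (-0.93) fell and Nbr1, a cargo receptor (0.73), rose, with edgeR adjusted p of 1.33e-05, 8.27e-05, 8.44e-05 and 0.000127.

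The hydrolase Ctss and the membrane protein Cd68, both abundant in macrophages and named here after their values were seen, fell by 4.33 and 2.56 on the log2 scale with glucose in Pcbp2βKO cells (edgeR adjusted p = 0.000874 and 0.000428). Their levels were low, at 4.11 to 17.5 CPM and 3.74 to 15.5 CPM at 2.8 mM and at most 1.43 and 2.68 CPM at 16.7 mM. Ctsc, Acp5 and Atp6v0d2 were also among the genes that fell there, from at most 4.66, 2.96 and 0.659 CPM at 2.8 mM. None of these genes was called with glucose in control cells.

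Between the genotypes, 4 of the 136 fell at 16.7 mM (2.94%; 1.42% of all genes) and 3 at 2.8 mM (2.21%; 1.78%), and 0 rose at either. These shares are near those of all genes. At 16.7 mM the 4 were Dnase2a, the lysosomal DNase (log2 -0.97), Laptm4b, a membrane protein (-0.80), Lgmn, the asparaginyl endopeptidase legumain (-0.93), and Retreg1, a receptor for autophagy of the endoplasmic reticulum (-1.19), with edgeR adjusted p of 0.00101, 0.00139, 0.0269 and 0.0465. At 2.8 mM they were Ppt1, a palmitoyl-protein thioesterase (-0.84), Atp6v1e1, a V1 subunit of the pump (-0.67), and Mtor, the kinase of mTORC1 (-0.75), with edgeR adjusted p of 0.00304, 0.0114 and 0.0149. Ppt1 had 290.3 to 295.2 CPM in control cells and 127.4 to 203 CPM in Pcbp2βKO cells at 2.8 mM, without overlap.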

How the data were processed

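Islet β cells were sorted from 4 groups (17 samples) and sequenced as paired reads from an ultra-low input library. Per the study's methods and the labels, the authors quantified reads with kallisto on a mouse GRCm39 transcriptome and deposited, for each transcript of each sample, an estimated (expected) count and a TPM value; the kallisto version was not given in the sources used here. The authors tested genes in edgeR with a batch term, but the batch of each sample is not in the sources used here, so no batch term was fitted. Here the deposited estimated counts were summed by gene symbol and identifier and rounded, giving 55357 genes. A gene was kept by edgeR's filterByExpr, leaving 22784. TMM factors, glmQLFit and glmQLFTest (edgeR 4.0.16, R 4.3.3) were used with 1 mean per group over all 17 samples, and p-values were adjusted over all tested genes. Log2 CPM used a prior count of 2. The deposited TPM values were summed per gene for levels between genes.

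The 42 members and the further lists were chosen with earlier results of these data known. Members called in any comparison are given per library; from the further lists, counts and at most 4 called genes with the smallest adjusted p are named. Start positions and promoter windows came from the GRCm39 genome with GENCODE vM39, since the promoter table at hand was of another build. The labels do not say whether replicate numbers pair the samples, and the main fit used no pairing. In control cells across glucose, deviations of same-numbered libraries from their group means correlated at 0.123 to 0.258 in all 3 pairs. These weak correlations were above the limit of 0.1 set here. Other pairs of groups had at least 1 correlation at or under that limit. The count procedures were tested on simulated data first. Alternatives covered the scaling, filter, test, unit, fold threshold, samples in the fit, left-out libraries and a replicate block.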

Additional observations from a re-analysis of the deposited data

Results flagged for a closer look

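In 7 of the 126 sets of 4 or 5 libraries examined for the 42 genes, 1 library lay far from the rest of its group on the log2 CPM scale by Dixon's criterion, and chance alone is expected to give about 5% of such sets. In control cells at 16.7 mM glucose, Wipi1 had 51.15 CPM in replicate 4 and 217.9 to 246.3 CPM in the others, Hexa had 346 CPM in replicate 3 and 437.9 to 451.3 CPM in the others, and Atg5 had 62.5 CPM in replicate 1 and 72.23 to 72.99 CPM in the others. In Pcbp2βKO cells at 16.7 mM, Mcoln1 had 70.3 CPM in replicate 4 and 52.3 to 53.5 CPM in the others, Hexa had 307.3 CPM in replicate 3 and 378.3 to 394 CPM in the others, and Atp6v0a1 had 132.5 CPM in replicate 5 and 156.8 to 163.7 CPM in the others. In Pcbp2βKO cells at 2.8 mM, Ctsl had 247.6 CPM in replicate 5 and 340.3 to 381 CPM in the others. Of these genes, Wipi1 and Mcoln1 are called with glucose, and both stayed called when the library in question was left out.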

How the results depend on the processing

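The glucose calls in control cells (9 members) were 22 with total counts in place of TMM, 31 with limma on log2(TPM + 1) and 15 without the fold threshold, and 7 to 9 with 1 library left out. In Pcbp2βKO cells (9 members) they were 28, 38 and 20, and 9 to 10 with 1 library left out. The knockout calls at 16.7 mM (1 member) were 0 with total counts, 0 with TPM, 0 with the compared groups fitted alone, 2 by DESeq2 and 3 without the fold threshold, and 0 to 3 with 1 library left out. Those at 2.8 mM (3 members) were 0 with total counts, 0 with TPM and 1 with the insulin genes and Iapp left out of the TMM factors, and 1 to 3 with 1 library left out. The interaction called 0 members under every alternative run. Counts over all genes, higher and lower, moved by more than 1.5 times in these further cases. Glucose in control cells (1629 and 1524) gave 2271 and 2627 without the 3 libraries that stood apart, 991 and 999 without control replicate 1 at 2.8 mM and 689 and 693 without replicate 2. Between genotypes at 16.7 mM (66 and 323), DESeq2 gave 221 and 505, the groups alone 38 and 200, TPM 18 and 172, the block 407 and 441, and leaving out libraries 237 and 350 (the 3 that stood apart), 27 and 186 (control replicate 3) and 199 and 453 (control replicate 4). At 2.8 mM (58 and 406), DESeq2 gave 210 and 625, the block 161 and 564, and the fit without control replicate 3 gave 17 and 225. The interaction (1 and 0) gave 27 and 7 by DESeq2, 13 and 2 without the filter on low counts and 11 and 6 with the block. Among single genes, Ulk1 with glucose in Pcbp2βKO cells reversed with TPM (-0.18), and the cause was not tested. With the replicate block, the calls were 9, 9, 1 and 3 in the same order. The same 9 members were called in each glucose comparison. The labels do not say for any comparison whether the numbers pair the libraries. In the knockout comparisons not every pair's correlation was above 0.1. There 0 of 1 and 1 of 3 calls were shared with the fit without a block: Lipa at both concentrations and Mcoln1 at 2.8 mM were not called with it, and Wipi1 at both and Atp6v1a at 2.8 mM were. In the pairs of groups of these comparisons, 6 of 6 libraries at 2.8 mM and 5 of 8 at 16.7 mM correlated best with their own number, and in Pcbp2βKO cells across glucose 10 of 10 did. The Lamp2 shares gave 0 differences with TPM and with estimated counts. TMM and the other scalings differ in what they hold constant, so a count of fallen members is relative to the scaling. Errors were widest for Wipi1, with SEs of 0.42 to 0.52 in the 4 comparisons.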
